A study of Homo sapiens with 6 samples.

Results

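Expression of 32 genes of pyruvate oxidation, the citric acid cycle and glutamine use was examined in EA.hy926 cells kept at low oxygen for 8 h. The genes were a fixed list of enzymes, 1 transporter and regulators, and all 32 were found among the 22153 genes of the deposited table. The comparison was between groups of equal size, 3 libraries of cells in normoxia (20% O2) and 3 libraries of cells in hypoxia (1% O2, 8 h), with polyadenylated RNA as the molecule. EA.hy926 is an immortal hybrid between umbilical vein endothelium and the lung carcinoma line A549, so all 6 libraries come from 1 line with a tumour parent. The labels call the cell type endothelial and describe no genetic change or second treatment.

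Pyruvate dehydrogenase is the mitochondrial complex that turns pyruvate from glycolysis into acetyl-CoA, which the citric acid cycle then oxidises while it charges electron carriers for respiration. The complex is switched off by pyruvate dehydrogenase kinases (PDK) and on by phosphatases (PDP). In low oxygen, hypoxia-inducible factors (HIF) are known to induce PDK1 and so to hold pyruvate back from the mitochondria, while glutamine can feed the cycle at 2-oxoglutarate and supply citrate for lipid synthesis. Endothelial cells are known to rely largely on glycolysis for ATP and to use glutamine as a carbon source for the cycle.

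HIF binds the core letters ACGTG or GCGTG. The 3 promoter windows shown are of a cycle entry enzyme, a kinase of the complex and a gene that was higher in all 3 hypoxia libraries. Each window is RefSeq sequence of 300 bases on build GRCh38.p14, 5′ to 3′ on the strand of the gene, with every match to ACGTG or GCGTG on either strand in capitals. Windows were picked for display only if they held at least 1 match. PDHB is not a typical gene of the list. It had the largest positive log2 difference among the 31 genes tested, and its window holds the most matches of the 39 windows of listed genes. IDH3G comes next with 5, and the windows of CS, MDH2 and D2HGDH hold 0. The DLST window and another PDK1 window (36.3% GC) held 0 matches and are not shown. PDHB lies on the minus strand at chr3:58433783-58434082, PDK1 on the plus strand at chr2:172555840-172556139 and PGK1 on the plus strand at chrX:78103998-78104297.
PDHB: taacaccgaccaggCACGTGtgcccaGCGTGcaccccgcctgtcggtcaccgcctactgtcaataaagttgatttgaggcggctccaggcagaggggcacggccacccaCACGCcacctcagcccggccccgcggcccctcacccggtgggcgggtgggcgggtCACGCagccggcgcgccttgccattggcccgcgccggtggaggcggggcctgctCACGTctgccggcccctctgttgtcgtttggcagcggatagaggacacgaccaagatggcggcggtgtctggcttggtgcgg
PDK1: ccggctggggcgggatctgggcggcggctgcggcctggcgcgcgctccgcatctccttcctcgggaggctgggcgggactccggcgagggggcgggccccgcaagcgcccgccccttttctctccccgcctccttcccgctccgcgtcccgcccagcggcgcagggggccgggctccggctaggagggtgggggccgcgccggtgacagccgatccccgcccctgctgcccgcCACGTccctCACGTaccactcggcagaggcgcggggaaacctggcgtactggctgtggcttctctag
PGK1: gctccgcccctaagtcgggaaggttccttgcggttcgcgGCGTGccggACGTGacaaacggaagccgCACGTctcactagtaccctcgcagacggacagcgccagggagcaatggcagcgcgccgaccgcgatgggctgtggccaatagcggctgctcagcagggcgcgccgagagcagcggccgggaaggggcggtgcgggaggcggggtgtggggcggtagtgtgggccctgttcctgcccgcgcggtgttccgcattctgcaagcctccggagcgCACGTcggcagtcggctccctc
The PDHB window holds 6 matches, counting the palindrome CACGTG once on each strand, against 2 in PDK1 and 4 in PGK1, the glycolytic phosphoglycerate kinase, which was 3.39-fold higher in hypoxia (log2 difference 1.77, adjusted p = 0.0236 by limma). That call was lost after correction for GC content and length (adjusted p = 0.0501) and without a filter (adjusted p = 0.0799), and over all alternatives the adjusted p reached 0.200 while the log2 difference stayed at 1.66 or above. Among the 32 genes, 29 had RefSeq windows, 39 windows in all, and 26 of these (66.7%) held at least 1 match. Across all 35116 promoter windows of the same length the share was 48.4%. The median GC content of the windows was 66.7% for the listed genes and 58.7% for all, and both motifs contain CG. A match describes letters and is no evidence of binding.

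The libraries held 17226736 to 18652704 reads assigned to genes, and the 32 genes took 0.310%, 0.319% and 0.302% of them in normoxia and 0.293%, 0.278% and 0.295% in hypoxia. Every hypoxia share was below every normoxia share, and this difference was not tested. A share is of all assigned reads, so it also depends on the reads that other genes take. All other values are read counts divided by 1 size factor per library, called scaled reads here. On that scale the log2 differences of the tested genes were 15 positive and 16 negative, with a median of -0.01. All 10 endothelial markers examined were expressed, among them CDH5 and PECAM1, with a summed level on an FPKM scale (per length and depth) of 531 to 1166 in normoxia and 611 to 1619 in hypoxia. The epithelial keratins KRT8 and KRT18 were also expressed, and 6 epithelial markers summed to 353 to 491 in normoxia and 315 to 462 in hypoxia, whereas EPCAM and KRT19 had 45 and 56 reads over the 6 libraries. Fibroblast markers summed to 4.38 to 6.68 and leukocyte markers to 0.507 to 3.21 in normoxia, and to 5.17 to 6.33 and 1.05 to 2.81 in hypoxia. The low-oxygen treatment was visible in 8 hypoxia marker genes, all of which were higher in hypoxia with groups that did not overlap. Of these, 5 passed the limma test over all genes.

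None of the genes of pyruvate oxidation, the citric acid cycle and glutamine use passed the test. Of the 32, 31 reached the expression filter (FPKM of 1 or higher in any 3 libraries), and SUCLA2 did not. With limma 0 of 31 passed an adjusted p of 0.05, against 0.0977% of the 10237 genes tested, and edgeR and DESeq2 also called 0 of 31, against 0.0977% and 0.488%. Without a filter limma, edgeR and DESeq2 called 0 of all 32, beside 0.0181%, 0.14% and 0.262% of 22153 genes. At an unadjusted p under 0.05 the count was 0 of 31 with limma, edgeR and DESeq2 alike, beside 2.69%, 2.46% and 2.97% of all genes. The log2 differences ran from -0.42 (OGDH) to 0.37 (PDHB), with 15 positive and 16 negative. Their median was -0.01, beside 0.00 over all genes tested.

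**Figure D1:**
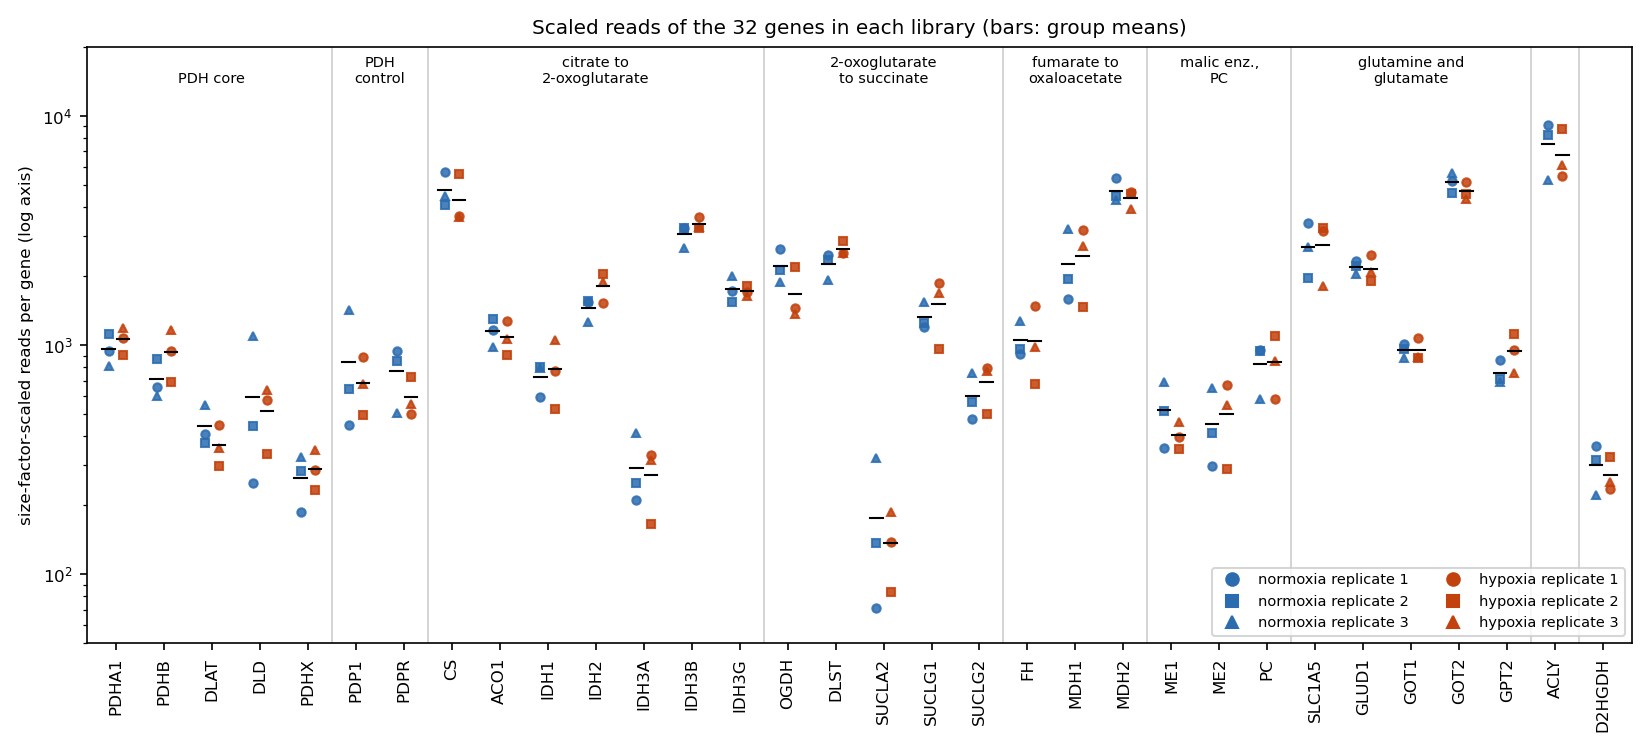
Size-factor-scaled reads (log axis) of each of the 32 genes in the 3 normoxia (blue) and 3 hypoxia (orange) libraries, ordered by role, with bars at the group means. The groups overlap in every gene except DLST, whose 3 hypoxia libraries (2513 to 2846) lie just above the 3 normoxia libraries (1932 to 2472).

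The precision of the comparison was enough to bound most of these genes. The 95% interval of the log2 difference lay within 1 unit of 0, so within a 2-fold change either way, in 25 of 31 genes. This was so for 58.4% of all genes tested. The 6 wider intervals belonged to PDHB, DLD, PDP1, PDPR, OGDH and ME2, and the outermost bounds were -1.20 and 1.21, both of DLD. These intervals are per gene, without correction for their number. The only non-overlapping gene was DLST, 1 of 31, against 7.48% of all genes tested, of which 4.77% were higher and 2.72% lower in hypoxia.

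**Figure D2:**
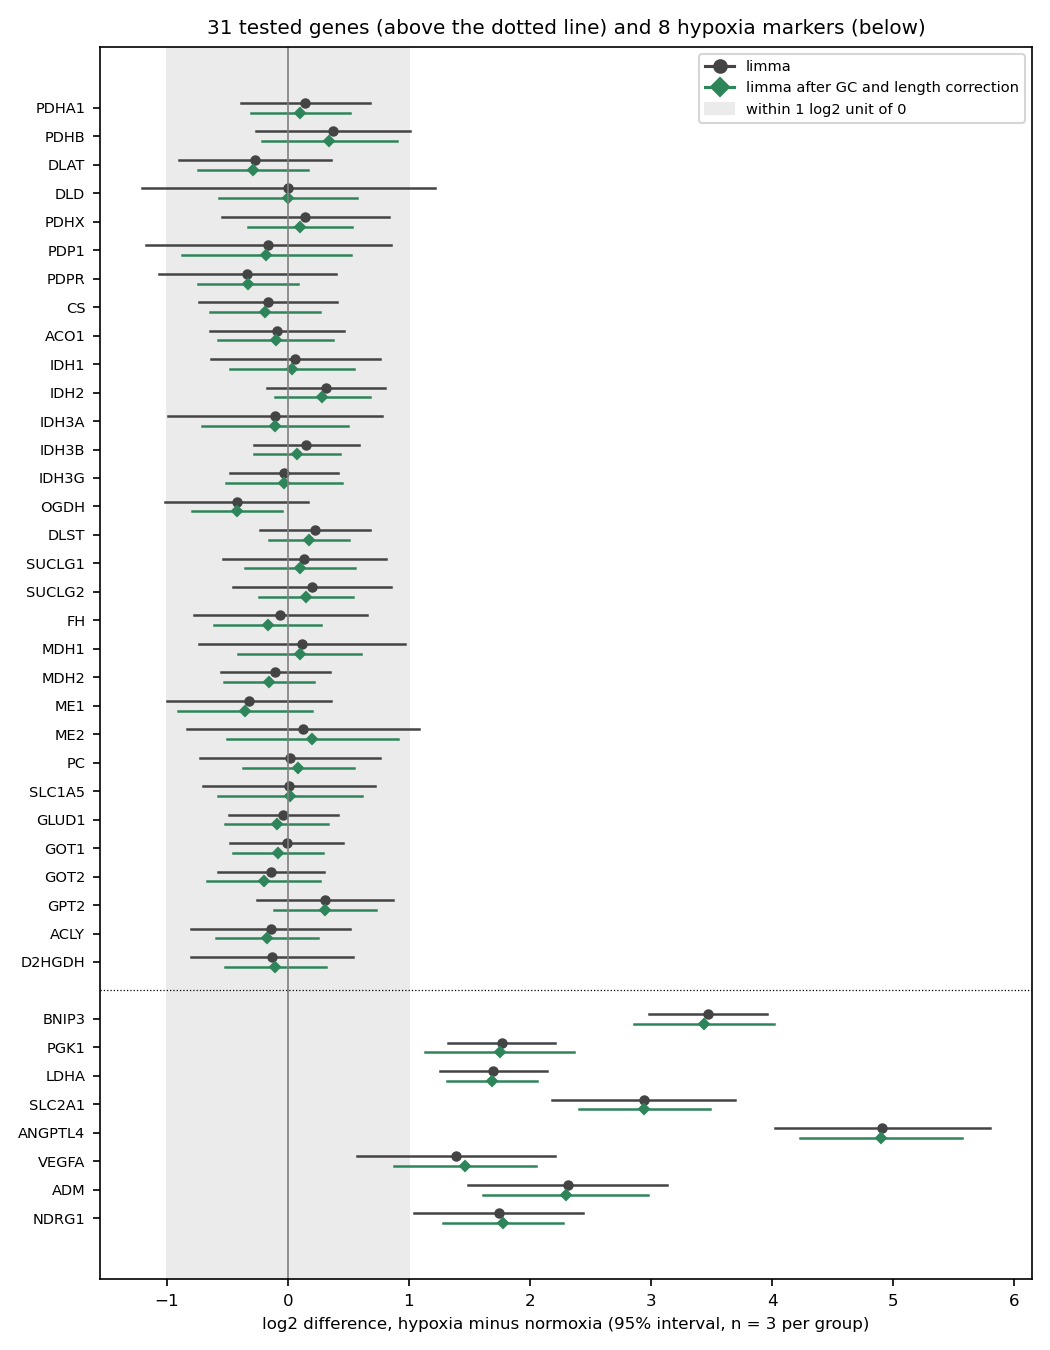
Log2 difference between hypoxia and normoxia with its 95% interval (limma, n = 3 per group) for the 31 tested genes and, below the dotted line, 8 hypoxia markers, with circles for the values as deposited and diamonds for values corrected for GC content and length. The tested genes lie between -0.42 and 0.37, whereas the markers lie between 1.39 and 4.91.

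None of the 5 core genes of pyruvate dehydrogenase passed the test. PDHA1, which encodes the alpha subunit of the pyruvate decarboxylase, had 947, 1120.3 and 809 scaled reads in normoxia and 1079, 906 and 1190.1 in hypoxia. Its partner PDHB (minus strand of chromosome 3, 58427630 to 58433857 in GENCODE 29, GRCh38) had 657, 873 and 601 in normoxia and 944, 687 and 1164 in hypoxia. In both genes hypoxia replicate 2 was the lowest hypoxia library and fell inside the normoxia range. The log2 differences were 0.15 (SE 0.23, adjusted p = 1.00) for PDHA1 and 0.37 (SE 0.28, adjusted p = 1.00, 0.853 to 1.00 over alternatives) for PDHB. PDHB had the largest positive difference among the 31 genes, and its interval of -0.27 to 1.01 includes 0. Whether motif matches go with the differences was not tested.

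DLAT, the acetyltransferase at the centre of the complex, averaged 445 ± 92.2 scaled reads in normoxia and 368 ± 76.9 in hypoxia (SD, n = 3 per group here and below). PDHX, the protein that docks the last enzyme onto the complex, averaged 264 ± 70.6 and 289 ± 57.4. DLD, the dihydrolipoamide dehydrogenase shared with the 2-oxoglutarate complex, had 249, 441 and 1095 in normoxia and 575, 336 and 636 in hypoxia. Normoxia replicate 3 was above and normoxia replicate 1 below every hypoxia library, and the spread within normoxia exceeded the difference between the groups. The sign of the DLD difference of 0.01 (adjusted p = 1.00) turned in 9 of 17 alternatives. The exons of DLD share 70 bp with LAMB1 on the opposite strand, which had 58407 reads over the 6 libraries against 3412 for DLD, and those of PDHX share 259 bp with APIP. The sources used here do not say whether reads were counted by strand.

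The phosphatase side of the switch did not pass the test either. PDP1, a catalytic phosphatase that reactivates the complex, had 449, 642 and 1429 scaled reads in normoxia and 889, 494 and 673 in hypoxia. PDPR, the regulatory subunit of that phosphatase, had 946, 853 and 505 in normoxia and 499, 727 and 553 in hypoxia. These genes ran opposite to each other in normoxia, where replicate 3 was the highest library for PDP1 and the lowest for PDPR. Their log2 differences were -0.16 (SE 0.44) and -0.33 (SE 0.32), both with an adjusted p of 1.00. PDPR has a pseudogene copy, PDPR2P, which held 7.20% as many reads as PDPR, so reads of the 2 may not be fully told apart.

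The kinases come from a list of other pathway genes, and PDK1 stood higher in hypoxia. PDK1 (plus strand of chromosome 2, 172555373 to 172608669) had 33.9, 31.2 and 52.7 scaled reads in normoxia and 205, 112 and 141 in hypoxia. Every hypoxia library was above every normoxia library, and the group means of 39.3 ± 11.7 and 153 ± 47.8 differed 3.89-fold. PDK1 was below the expression filter, because its 575 reads are spread over 14883 bases of summed exon length. Without a filter its log2 difference was 1.43 in limma (SE 0.37, adjusted p = 1.00) on the pseudocount scale, which understates low genes, 1.99 in edgeR (adjusted p = 0.0604) and 1.96 in DESeq2 (adjusted p = 0.00352). It was the 1 gene of the 48 other pathway genes that DESeq2 called without a filter, against 0.262% of all genes, and limma and edgeR called none. The exons of PDK1 share 445 bp with PDK1-AS1 on the opposite strand, which had 187 reads over the 6 libraries.

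PDK3 was also higher in each hypoxia library, at 8.47, 12.3 and 14.1 scaled reads in normoxia and 32.1, 24.9 and 57.0 in hypoxia. These are few reads, and its adjusted p was 1.00 in limma, 0.870 in edgeR and 0.927 in DESeq2, all without a filter. PDK2 did not separate the groups: it averaged 563 ± 66.6 in normoxia, 532 ± 112 in hypoxia, and limma put the log2 difference at -0.10, with -0.69 and 0.50 as the 95% bounds (adjusted p = 1.00). PDK4 averaged 12.9 ± 4.38 and 8.32 ± 1.85.

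**Figure D3:**
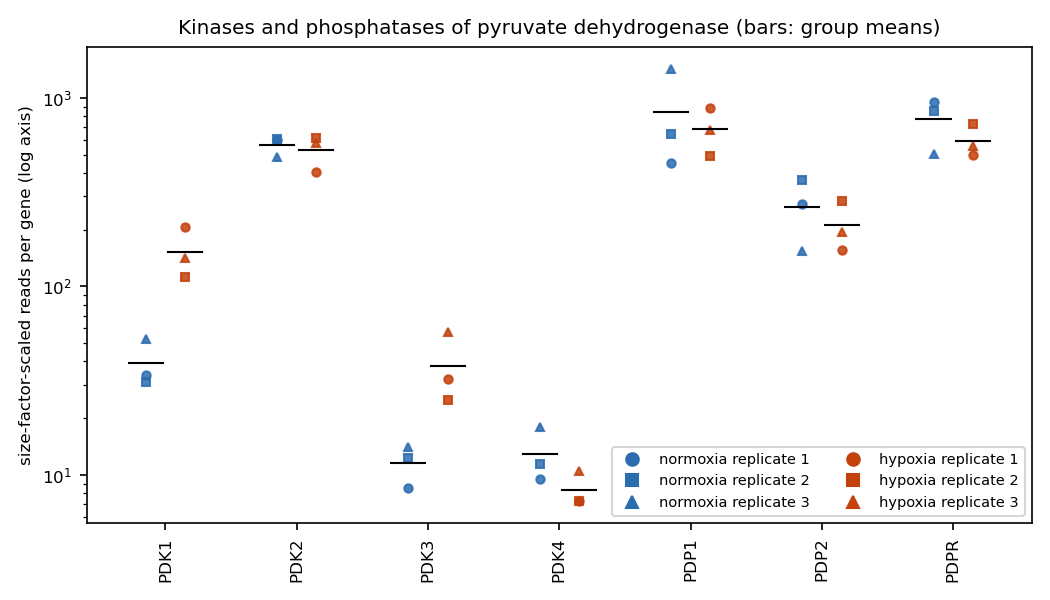
Size-factor-scaled reads (log axis) of the 4 pyruvate dehydrogenase kinases and 3 phosphatase genes in each library, with bars at the group means. PDK1 and PDK3 are higher in all 3 hypoxia libraries than in all 3 normoxia libraries, whereas the groups overlap for PDK2, PDK4, PDP1, PDP2 and PDPR.

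The steps from oxaloacetate to 2-oxoglutarate showed no member past the test. Citrate synthase, encoded by CS, averaged 4745 ± 822 scaled reads in normoxia and 4286 ± 1119 in hypoxia. IDH3B, a subunit of the NAD-linked isocitrate dehydrogenase of the cycle, had 3232, 3247 and 2665 in normoxia and 3636, 3234 and 3276 in hypoxia. Its groups overlapped by a narrow margin, and its log2 difference was 0.15 (SE 0.19, adjusted p = 1.00). The catalytic subunit IDH3A averaged 291 ± 107 and 271 ± 92.0, and the regulatory subunit IDH3G 1761 ± 232 and 1719.8 ± 87.5. The exons of IDH3G share 278 bp with SSR4 on the opposite strand, which had 42209 reads against 10520. The exons of IDH3A share 2608 bp (38.2% of their length) with ACSBG1 on the opposite strand, which had 12 reads.

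Of the NADP-linked isocitrate dehydrogenases, IDH2 of the mitochondria had 1538, 1563 and 1261 scaled reads in normoxia and 1519, 2042 and 1891 in hypoxia. The highest 2 of the 6 values were from hypoxia, while hypoxia replicate 1 lay within the normoxia range. Its log2 difference was 0.32 (95% interval -0.17 to 0.80, adjusted p = 1.00). IDH1, the cytosolic enzyme, averaged 729 ± 120 and 783 ± 262. ACO1, the cytosolic aconitase that doubles as an iron-regulatory protein, averaged 1149 ± 157 and 1082 ± 187.

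Of the 2-oxoglutarate dehydrogenase complex, OGDH had the lowest log2 difference of the 31 genes and DLST the only separated groups. Separated groups in 1 of 31 genes is 3.23%, beside 7.48% of all genes tested. OGDH (plus strand of chromosome 7, 44606572 to 44709066), the decarboxylase of the complex, had 2619, 2119 and 1885 scaled reads in normoxia and 1448, 2182 and 1371 in hypoxia. Hypoxia replicates 1 and 3 were below all normoxia libraries and hypoxia replicate 2 was inside their range. The log2 difference was -0.42 (SE 0.26, adjusted p = 1.00, 0.834 to 1.00 over alternatives), and it was negative in all 17 alternatives, from -0.63 to -0.29. After correction for GC content and length it was -0.42 (95% interval -0.79 to -0.05, unadjusted p = 0.0314, adjusted p = 0.913), the 1 gene of 31 under 0.05 in that fit, which has 4.81% of all genes under 0.05.

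DLST (plus strand of chromosome 14, 74881891 to 74903745), the succinyltransferase core of the same complex, had 2472, 2356 and 1932 scaled reads in normoxia and 2519, 2846 and 2513 in hypoxia. The lowest hypoxia library stood just above the highest normoxia library. In read counts before scaling the groups overlapped, with 2488 in normoxia replicate 2 and 2429 in hypoxia replicate 1. Its log2 difference was 0.23 (SE 0.20, adjusted p = 1.00), positive in all 17 alternatives. OGDH and DLST, partners in 1 complex, thus had differences of opposite sign, and neither passed.

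Succinyl-CoA synthetase, which makes ATP or GTP directly, is a shared alpha subunit with either of 2 beta subunits. The alpha subunit SUCLG1 averaged 1330 ± 188 scaled reads in normoxia and 1509.5 ± 481 in hypoxia. The GTP-forming beta subunit SUCLG2 averaged 597 ± 142 and 689 ± 162. SUCLA2, the ATP-forming beta subunit, had 71.0, 137 and 322 in normoxia and 138, 84.0 and 187 in hypoxia. Its normoxia libraries alone spanned the whole range of the gene. Without the filter its log2 difference was -0.17 (95% interval -1.46 to 1.12, adjusted p = 1.00 by limma).

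From fumarate to oxaloacetate, no gene passed the test. FH, fumarase, averaged 1049 ± 195 scaled reads in normoxia and 1044 ± 402 in hypoxia. MDH2, the malate dehydrogenase of the cycle, had 5336, 4469 and 4299 in normoxia and 4664, 4548 and 3914 in hypoxia. MDH1, its cytosolic counterpart in the malate-aspartate shuttle, had 1591, 1952 and 3206 in normoxia and 3191, 1471 and 2707 in hypoxia. MDH2 varied little, whereas MDH1 differed about as much within each group as its whole range. All 3 intervals lay within a 2-fold change, with log2 differences of -0.06, -0.10 and 0.12.

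Anaplerosis, the refilling of the cycle, showed no gene past the test. PC, pyruvate carboxylase, had 955, 944 and 583 scaled reads in normoxia and 582, 1100.2 and 851 in hypoxia. Normoxia replicate 3 and hypoxia replicate 1 were its low libraries, and the log2 difference was 0.02. The exons of PC share 621 bp with LRFN4 on the opposite strand, which held 145% as many reads. The malic enzymes convert malate to pyruvate, and the cytosolic ME1 averaged 520 ± 167 and 404 ± 56.9 while the mitochondrial ME2 averaged 453 ± 179 and 501 ± 195. Their log2 differences were -0.32 (SE 0.29) and 0.13 (SE 0.41), both with an adjusted p of 1.00.

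None of the 5 glutamine and glutamate genes passed the test. SLC1A5, a glutamine importer of the cell membrane, averaged 2691 ± 722 scaled reads in normoxia and 2736 ± 801 in hypoxia. GLUD1, which turns glutamate into 2-oxoglutarate, averaged 2198 ± 150 and 2153 ± 283, and its exons share 464 bp with SHLD2 on the opposite strand. GOT2, the mitochondrial aspartate aminotransferase, had 5206, 4613 and 5629 in normoxia and 5156, 4560.5 and 4331 in hypoxia. All 3 hypoxia values of GOT2 were under 5206, its normoxia replicate 1. Cytosolic GOT1 averaged 952 ± 67.2 and 948 ± 112, a log2 difference of -0.01 (95% interval -0.48 to 0.46). GPT2, the mitochondrial alanine aminotransferase, averaged 753 ± 92.6 and 943 ± 183, and its log2 difference, 0.31, had an interval of -0.26 to 0.87 (adjusted p = 1.00). All 5 intervals were within a 2-fold change.

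Citrate that leaves the mitochondria is cleaved by ACLY to give acetyl-CoA for lipid synthesis. ACLY, the highest of the 32 genes per summed exon length (mean FPKM 76.8), had 9106, 8252 and 5233 scaled reads in normoxia and 5481, 8756 and 6101 in hypoxia. Per median length of the coding transcripts it was not the highest, at 109 beside 380 for CS. D2HGDH, which clears D-2-hydroxyglutarate, had 363, 315 and 222 in normoxia and 235, 324 and 252 in hypoxia. In both genes normoxia replicates 1 and 2 and hypoxia replicate 2 were the high libraries. The log2 differences were -0.14 (SE 0.28) and -0.13 (SE 0.29), both with an adjusted p of 1.00.

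Ratios between paired enzymes within a library were compared for 5 pairs, as differences of log2(FPKM + 0.1). The scaling of a library cancels in such a ratio except for the added 0.1. That addition weighs most on low genes such as SUCLA2, which was below the expression filter. For cytosolic IDH1 over mitochondrial IDH2, per length, the normoxia libraries had log2 ratios of -2.11, -1.70 and -1.40 and the hypoxia libraries -1.71, -2.68 and -1.59. The difference of -0.26 gave an exact two-sided permutation p of 0.6 (adjusted 0.750). The groups overlapped in all 5 pairs, and 3 libraries against 3 cannot give a p below 0.1.

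For the other pairs the difference in log2 ratio was 0.22 for MDH1/MDH2 (exact permutation p = 0.8, adjusted 0.8), 0.13 for GOT1/GOT2 (p = 0.6, adjusted 0.750), -0.45 for ME1/ME2 (p = 0.300, adjusted 0.750) and -0.38 for SUCLA2/SUCLG2 (p = 0.6, adjusted 0.750). ME1/ME2 was tightest in normoxia, at 2.42, 2.51 and 2.31, and stood at 1.48, 2.44 and 1.98 in hypoxia. Without hypoxia replicate 2 the IDH1/IDH2 difference was 0.087, and without normoxia replicate 1 the MDH1/MDH2 difference was -0.093, so 1 library set the sign in each. Without normoxia replicate 3 the difference was -0.04 for SUCLA2/SUCLG2 and 0.0051 for GOT1/GOT2. For ME1/ME2 it was -0.20 without hypoxia replicate 1 and -0.68 without hypoxia replicate 2. The range over 6 libraries was 0.42 log2 units for GOT1/GOT2, whose transcripts have GC contents of 51.8% and 51.5%, and 1.32 for MDH1/MDH2, with 43.2% and 54.1%. It was 1.28 for IDH1/IDH2 (43.7% and 57.3%), 1.03 for ME1/ME2 (39.5% and 40.2%) and 1.30 for SUCLA2/SUCLG2 (40.5% and 42.0%). The members of ME1/ME2 and of SUCLA2/SUCLG2 were close in GC content. SUCLA2 had 67 to 342 reads in a library, and the lowest ME1/ME2 value was in hypoxia replicate 1. The source of these ranges was not tested.

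Which member of a pair is the more abundant depends on the length used. With the summed length of all annotated exons, the mean normoxia ratio was 5.33 for ME1/ME2 and 0.361 for MDH1/MDH2. With the median length of the coding transcripts it was 0.811 and 1.09. ME2 has 16243 bases of summed exon and a median coding transcript of 2471. IDH1/IDH2 was below 1 with both lengths, at 0.306 and 0.460, as were GOT1/GOT2 (0.210 and 0.131) and SUCLA2/SUCLG2 (0.103 and 0.363).

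**Figure D4:**
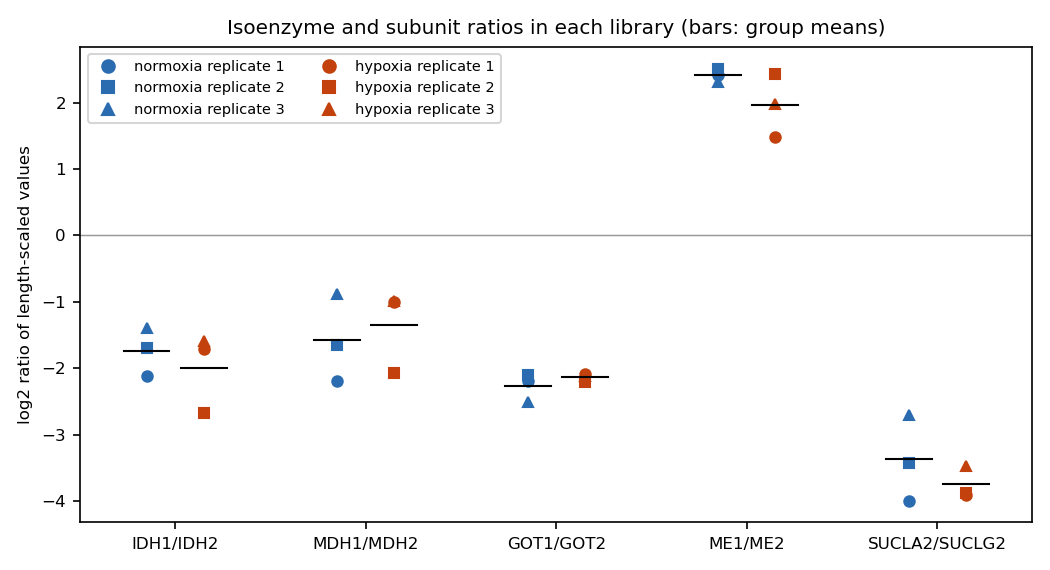
Log2 ratio of length-scaled values (summed exon length) for 5 pairs of isoenzymes or alternative subunits in each library, with bars at the group means. The groups overlap in all 5 pairs, and the spread over libraries is smallest for GOT1/GOT2 in normoxia and hypoxia together (0.42 log2 units from lowest to highest).

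The differences between libraries within a group went partly with GC content. In normoxia replicate 3 the transcripts under 50% GC, 16 of the 31 genes, had a median log2 deviation of 0.32 from the group mean, and the 15 others -0.19. Normoxia replicate 1 was the reverse, at -0.29 and 0.19, and so was hypoxia replicate 2, at -0.42 and 0.26, where all 16 low-GC genes were under their group mean. DLD (40.3% GC), PDP1 (44.1%) and MDH1 (43.2%) were among the low-GC genes with wide spread, whereas ACLY (53.2%), PC (61.2%) and PDPR (51.1%) had low values in normoxia replicate 3 and hypoxia replicate 1. Across the 31 genes, Pearson's r between GC content and the deviation was 0.77, 0.08 and -0.67 in normoxia replicates 1, 2 and 3 and -0.62, 0.82 and -0.66 in hypoxia replicates 1, 2 and 3. These are correlations across genes measured in the same libraries, and all genes tested showed the same signs (0.64, 0.23, -0.58, -0.34, 0.52 and -0.36).

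The trend was seen between libraries of the same group. Across the 31 genes r between GC content and the difference between the groups was -0.04. Within-group SDs on the log2 scale had a median of 0.38 for the low-GC genes and 0.23 for the others, beside 0.38 over all genes tested. After correction for GC content and length the standard error was lower in 29 of 31 genes, with a median of 0.20 in place of 0.28. Over all genes tested the median also fell, to 0.23 from 0.31. All 31 intervals then lay within a 2-fold change, the differences ran from -0.42 to 0.34, and 0 of 31 passed, against 0.332% of all genes. The matching share of intervals over all genes was not computed for that fit. The same libraries also differed in cell type markers. Endothelial VWF had 3522, 2669 and 462 scaled reads in normoxia and 371, 4819 and 1568 in hypoxia. Epithelial KRT8 had 21143, 19057 and 27280 in normoxia and 30344, 15154 and 20157 in hypoxia. MUC1, also epithelial, was instead lowest in normoxia replicate 3 and hypoxia replicate 1. The origin of the GC trend and of the marker differences was not tested.

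**Figure D5:**
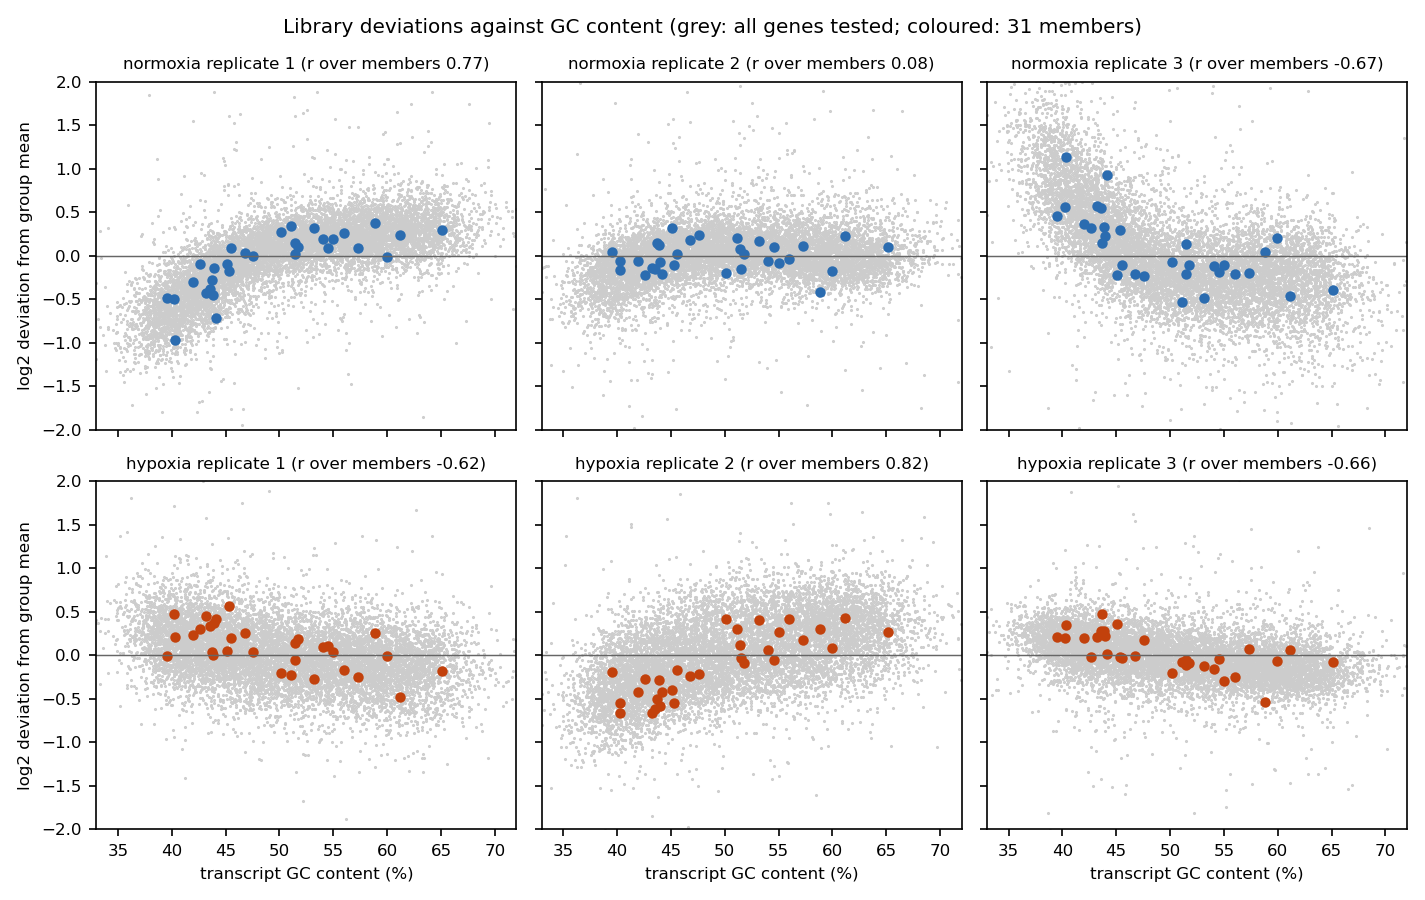
Log2 deviation of each gene from its group mean in each library against transcript GC content (%), with all genes tested in grey and the 31 genes in colour. Low-GC genes lie above 0 in normoxia replicate 3 and hypoxia replicates 1 and 3, and below 0 in normoxia replicate 1 and hypoxia replicate 2.

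Of 51 other genes of the same pathways, 48 were found and 37 tested, and none passed in either direction. None of them had an unadjusted p under 0.05 by limma, edgeR or DESeq2, and 21 were positive and 16 negative, with a median of 0.03. Succinate dehydrogenase, the cycle enzyme that is also respiratory complex II, had log2 differences of 0.07 (SDHA), 0.21 (SDHB), 0.23 (SDHC) and 0.30 (SDHD), none past the test. The mitochondrial pyruvate carrier genes MPC1 and MPC2 stood at 0.03 and -0.00.

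The 6 largest differences in this list were 0.74 for SIRT4, a mitochondrial sirtuin with 150 reads in all, -0.66 for SLC25A10, the dicarboxylate carrier, 0.46 for SLC38A1, a neutral amino acid transporter, -0.45 for SLC7A11, the cystine-glutamate exchanger, 0.40 for SDHAF2, an assembly factor of succinate dehydrogenase, and -0.34 for IREB2, an iron-regulatory protein. Each had an adjusted p of 1.00. SLC25A11, the 2-oxoglutarate carrier of the malate-aspartate shuttle, was the 1 tested gene here with separated groups, at 1758, 1760.4 and 1867 scaled reads in normoxia and 1720.5, 1498 and 1553 in hypoxia. This is 2.70% of the 37, beside 7.48% of all genes with separated groups in either direction and 2.72% lower. The log2 difference of SLC25A11 was -0.18 (95% interval -0.59 to 0.24). Its exons share 244 bp with RNF167 on the opposite strand, which had 13159 reads against 10242. Below the filter, OGDHL had 109 reads over the 6 libraries.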

How the data were processed

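The submitters' processing notes list CASAVA, HISAT2 2.0.5 and featureCounts 1.5.0-p3, and the mouse build mm9, although the gene identifiers in the table are human. The deposited signal, named FPKM in its file name, proved to be whole read counts divided by 1 size factor per library: 100% of values in each library were whole multiples of 1 step, within a tolerance of 0.05 of a step. The read counts recovered this way were used for edgeR 4.0.16 and DESeq2 1.42.0.

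For the main test, which had been set for FPKM, the deposited values were divided by summed exon length (GENCODE 29, GRCh38, matched by identifier) and by the mean library total. log2(FPKM + 0.1) of the 10237 genes with at least 1 FPKM in 3 or more libraries was fitted with limma 3.58.1 in R 4.3.3 (group as the only term, trended and robust variances, two-sided, Benjamini-Hochberg over all genes tested, threshold 0.05). Log2 differences, standard errors, intervals and adjusted p-values are from this fit unless another tool is named, and means and SDs are of scaled reads. The fits were tested on simulated reads drawn independently for each gene and library. That simulation held no GC trend, so it does not cover the trend seen in these libraries. The GC and length correction removed a smooth trend from each library (mgcv 1.9.3).

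The genes and lists were chosen with earlier results of these data known. All 32 genes are named. Values of each library were to be given for genes with separated groups or an unadjusted p under 0.05 and for the most abundant gene of each role, and those of other genes were chosen after their values were seen. Replicates are not stated to be separate cultures, and p-values then cover no more than the scatter of these 6 libraries, possibly technical. In bulk RNA, fewer cells and less RNA per cell cannot be told apart. Results for some genes of the wider pathway list and for an overlapping gene are not reported here.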

Additional observations from a re-analysis of the deposited data

How the results depend on the processing

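None of the 31 tested genes passed in any of up to 17 alternatives (SUCLA2 entered the fits without a filter and did not pass), and the lowest adjusted p among them was 0.834. The sign of the log2 difference stayed the same in all alternatives for 14 genes and turned in at least 1 for 17, most often DLD. The median over the listed genes stayed between -0.10 and 0.06, within the 0.18 SD between libraries, and that of all genes between -0.03 and 0.02. The number of genes called among all tested was less stable. It was 10, and became 4 without the filter, 34 after the GC and length correction and 50 by DESeq2, and, in alternatives chosen after seeing the data, 58 by DESeq2 and 31 by edgeR without the filter. Without 1 library it ran from 1 to 24: 24 with normoxia replicate 3 left out, 5 with normoxia replicate 2, 4 with normoxia replicate 1, 3 with hypoxia replicate 2, 2 with hypoxia replicate 1 and 1 with hypoxia replicate 3. The cause was not tested. Leaving out 1 library, the ratio differences ran from -0.46 to 0.087 (without hypoxia replicate 2) for IDH1/IDH2 and from -0.093 (without normoxia replicate 1) to 0.58 for MDH1/MDH2, from 0.0051 to 0.21 for GOT1/GOT2, from -0.68 to -0.20 for ME1/ME2 and from -0.69 to -0.04 for SUCLA2/SUCLG2. With the replicate number as a block 19 genes were called. The labels give the numbers no meaning, and deviations of same-numbered libraries correlated at -0.40, 0.24 and 0.22, so the numbers were not taken to pair the samples. Those of differently numbered libraries correlated at -0.561 to 0.609. The highest was normoxia replicate 1 with hypoxia replicate 2, then normoxia replicate 3 with hypoxia replicate 1 (0.505). The main fit does not model this shared spread.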
